A study of Mus musculus with 20 samples.

Results

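The scavenger receptors described here are the products of 7 genes, Msr1, Marco, Cd36, Scarb1, Cd68, Olr1 and Stab1, measured as transcripts in mouse alveolar macrophages. The genes were chosen by name, with earlier results of these data known, and all 7 of the 7 listed were present among the 13225 genes of the deposited table. Alveolar macrophages, the phagocytes that live on the air side of the lung surface, had been sorted by flow cytometry on CD45, Siglec-F and CD11c. The 4 groups were sequenced with poly-A selection, 1 library per mouse and 5 mice in each: wild-type C57BL/6 mice in air (WT air), wild-type C57BL/6 mice in cigarette smoke (WT smoke), and mice without miR-155, strain B6.Cg-Mir155tm1.1Rsky/J, in air (KO air) or in cigarette smoke (KO smoke). Exposure lasted 4 weeks in every group. Whether the wild-type animals were littermates of the knockouts, and which bases of the locus the allele removes, is not given in the sources used here. By its design the study asks what smoke changes in each genotype, what the loss of miR-155 changes in each exposure, and whether the smoke change depends on the genotype.

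Scavenger receptors are a family defined by what they bind rather than by a common ancestor: modified lipoproteins, bacterial surface molecules, dead cells and inhaled particles, many of them polyanionic. On alveolar macrophages, MARCO and SR-A are known for the uptake of unopsonised bacteria and particles, and CD36 and SR-BI for the handling of lipids, which in the air space come largely from surfactant. MicroRNAs such as miR-155 lower the level or translation of transcripts whose 3' untranslated region pairs with the seed, the bases near the 5' end of the microRNA.

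The microRNA that the knockout line is labelled as lacking and its seed match among the 7 genes are shown first, since they link the genotype to 1 of the genes by sequence. The mature miR-155-5p lies on chr16:84714143-84714165, plus strand (RefSeq, GRCm38.p6), and its seed, bases 2 to 8, is in capitals. The 28 Msr1 bases printed lie on chr8:39604689-39604716, minus strand (GENCODE M21 transcripts, GRCm38). The match itself lies on chr8:39604699-39604706, and its 8 bases, which pair with the seed and with an A opposite the first base, are in capitals.
mmu-miR-155-5p: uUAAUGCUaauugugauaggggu
Msr1 site: taaagtctgcAGCATTAAgatagtagca
This was the only match of 7 or 8 bases in the longest annotated 3' untranslated regions of the 7 genes, at bases 1266 to 1273 of 2518 in the Msr1 transcript ENSMUST00000170091.2. Of the 2 Msr1 transcripts annotated with a stop codon, that one holds the site in its untranslated exon, and in the other the same bases are intronic. The deposited values are per gene and do not separate these isoforms. Of 11296 genes of the table with an annotated region, 14.5% held at least 1 such match, beside 1 of the 7 genes here. A match describes letters and is no evidence of regulation.

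RefSeq promoter windows (GRCm38.p6, 250 bases before to 50 after the annotated start) were found for 5 of the 7 genes, namely Marco, Cd36, Cd68, Stab1 and Olr1. The 250 bases before the start are printed for the 4 of them whose transcripts passed the test for smoke in WT mice, 5' to 3' on the minus strand, on which all 7 genes lie. Capitals mark matches to the motifs searched on both strands: the PU.1 core GAGGAAG, AP-1 TGANTCA, C/EBP TTGCNNAA, the MiT-factor E-box CACGTG, the GC box GGGCGG and the TATA box TATAAA.
Marco, chr1:120505025-120505274: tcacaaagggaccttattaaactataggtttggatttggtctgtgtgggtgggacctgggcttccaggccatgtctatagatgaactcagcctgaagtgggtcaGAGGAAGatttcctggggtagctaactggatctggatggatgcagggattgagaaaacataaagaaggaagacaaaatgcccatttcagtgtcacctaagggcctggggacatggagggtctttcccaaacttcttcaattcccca
Cd36, chr5:17835897-17836146: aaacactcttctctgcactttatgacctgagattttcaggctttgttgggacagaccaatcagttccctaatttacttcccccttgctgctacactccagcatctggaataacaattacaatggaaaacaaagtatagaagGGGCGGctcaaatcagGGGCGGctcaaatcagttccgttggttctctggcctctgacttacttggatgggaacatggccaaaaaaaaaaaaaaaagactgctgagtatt
Cd68, chr11:69666171-69666420: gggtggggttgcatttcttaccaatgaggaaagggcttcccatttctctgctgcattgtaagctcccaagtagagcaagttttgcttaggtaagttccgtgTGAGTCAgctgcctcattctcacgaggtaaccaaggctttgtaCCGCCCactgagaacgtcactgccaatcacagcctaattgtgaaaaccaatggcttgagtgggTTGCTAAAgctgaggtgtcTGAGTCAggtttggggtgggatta
Stab1, chr14:31168642-31168891: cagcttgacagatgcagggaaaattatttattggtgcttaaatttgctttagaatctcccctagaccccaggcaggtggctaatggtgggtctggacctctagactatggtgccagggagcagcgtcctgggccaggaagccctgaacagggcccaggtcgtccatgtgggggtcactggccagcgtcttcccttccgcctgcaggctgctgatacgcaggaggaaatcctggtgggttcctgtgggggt
The Cd68 window held 2 AP-1 matches, at -149 and -24 from the start, with a C/EBP match between them at -43 and a GC box on the opposite strand at -106. Marco held 1 PU.1 core at -146, Cd36 held 2 GC boxes at -109 and -93, and Olr1, not printed, held 1 AP-1 match at -60. No letters of these motifs were found in the Stab1 window, and no motif was shared by all 4 printed windows. Among 32851 windows of the same length, the PU.1 core was found in 13.6%, AP-1 in 7.81%, C/EBP in 10.8%, the E-box in 7.15%, the GC box in 35.7% and the TATA box in 13.6%. The Cd36 window lies inside the Cd36 gene as GENCODE draws it (chr5:17781690-17888801), since the annotated transcripts of this gene start at several places.

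The 20 libraries held between 6885680 and 11952088 reads over the genes of the table. Of the 11 alveolar macrophage markers all were measured, with a summed level between 48740 and 59470 CPM (reads scaled to a common library total) in every library, while no T, NK or B cell, eosinophil or red cell marker was in the table. Of 8 neutrophil, 8 dendritic cell and 10 epithelial markers, 4, 5 and 6 were measured. Their sums ran from 39.0 to 94.4, 16.2 to 40.4 and 120.4 to 209.6 CPM. With smoke 2, 1 and 2 were called higher in WT mice and 1, 0 and 1 lower, beside 22.4% of all genes. In KO mice 2, 1 and 1 were called higher and 1, 0 and 1 lower, beside 15.5%. Without KO air mice IIIb2, IIIb3 and IIIb4 the KO counts were 2, 0 and 0 higher and 1, 0 and 1 lower. The sort marker Siglecf (CD170 on the cell surface) fell with smoke by 1.25 on the log2 scale in WT and by 1.15 in KO mice (limma, adjusted p = 2.25e-08 and 1.41e-07), and Ptprc, which encodes CD45, fell by 0.69 and 0.30 (9.25e-08 and 0.00637), while Itgax, which encodes CD11c, had differences of -0.03 and 0.06. In both genotypes smoke lowered 5 of the 11 alveolar markers (Ear2, Siglecf, Ptprc, Fcgr1 and Adgre1) and raised 1 (Car4). Their summed level does not show this, since Lyz2 and Chil3 make up most of it. The part of these changes in the smoke results was not tested. The host transcript Mir155hg had 0, 0, 0, 1 and 1 reads in the WT air mice, 0, 21, 6, 4 and 17 in WT smoke, 0, 10, 0, 0 and 15 in KO air, and 5, 2, 0, 0 and 1 in KO smoke; these few reads do not check the genotype, because the part of the locus that the allele removes is not known here. In KO air the 3 libraries from mice IIIb2, IIIb3 and IIIb4 lacked any read of 1645, 1524 and 1451 genes, where the other 17 libraries lacked 259 to 1224. Results for smoke in KO mice are also given without these 3 libraries where that changes a named gene's call or a list's count. Other values given only with all libraries can still move, as for Itgax, where the KO difference of 0.06 became -0.0055. That fit rests on the 2 remaining KO air mice. In these bulk samples, fewer cells of a type and less RNA per cell cannot be told apart.

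Smoke changed most of the 7 transcripts. In WT mice 4 rose (Stab1, Msr1, Cd68 and Marco), 1 fell (Cd36), and Scarb1 and Olr1 did not pass the test; in KO mice Msr1, Cd68 and Marco rose, Cd36 fell, and the other three did not pass. A gene was called at a Benjamini-Hochberg adjusted p under 0.05 over all 13225 genes, from limma's moderated test on the deposited log2 CPM. The same rule called 22.4% of all genes in WT mice (9.66% higher and 12.8% lower) and 15.5% in KO mice (7.05% higher and 8.45% lower), beside 5 of 7 and 4 of 7 here. The median log2 change of the 7 genes was 0.79 in WT mice and 0.54 in KO mice, against -0.02 and -0.01 over all genes. Groups that did not overlap at all were found for 5 of the 7 genes in WT mice, against 18.1% of all genes, and for 2 of the 7 in KO mice (Msr1 and Cd68), against 9.88%. The 7 genes were chosen with earlier results of these data known, so these comparisons with all genes are descriptions. Without KO air mice IIIb2, IIIb3 and IIIb4, 3 of the 7 genes were called in KO mice, all higher: Msr1, Cd68 and, in place of Marco and Cd36, Scarb1. That fit called 1220 of all 13225 genes in KO mice, 612 higher and 608 lower. The WT call was kept by all 5 genes under each alternative processing that could be fitted and with each of the 20 libraries left out.

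**Figure D1:**
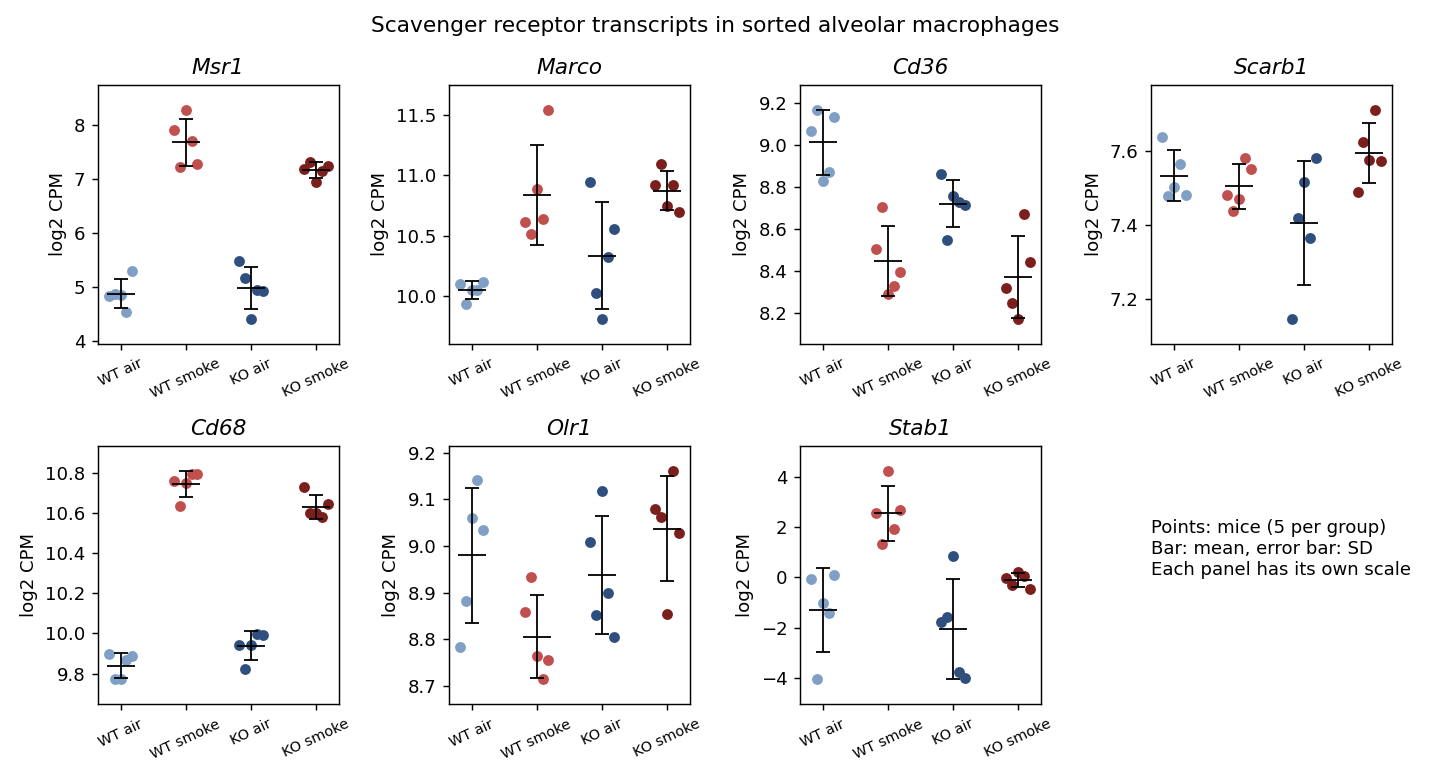
Deposited log2 CPM (vertical axes, each panel with its own scale) of the 7 scavenger receptor transcripts in every mouse, by group; points are mice (5 per group), the bar is the mean and the error bar the SD. Msr1 and Cd68 lie wholly higher in smoke than in air in both genotypes, while Stab1 does so in WT mice and overlaps in KO mice.

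Msr1 (ENSMUSG00000025044.16, chr8:39581685-39642673) encodes SR-A, the class A receptor also called CD204, which binds acetylated lipoproteins, lipid A and dead cells. Its level was 28.4, 29.1, 29.0, 23.2 and 39.1 CPM in the WT air mice and 238, 148.5, 309, 207.6 and 155 CPM in the WT smoke mice. It was 44.7, 35.7, 21.3, 30.9 and 30.5 CPM in KO air and 145, 158.7, 122, 142 and 151 CPM in KO smoke. Every smoke mouse of either genotype stood above every air mouse, the highest of which had 44.7 CPM. The log2 change with smoke was 2.79 ± 0.17 (SE, n = 5 against 5; 6.93-fold) in WT mice and 2.17 ± 0.17 (4.51-fold) in KO mice, with limma adjusted p of 1.01e-12 and 2.52e-10. Both calls were kept with each library left out, with log2 changes from 2.64 to 2.91 in WT and from 2.03 to 2.30 in KO mice. Without KO air mice IIIb2, IIIb3 and IIIb4 the KO change was 1.84 (limma adjusted p = 4.49e-07).

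The smoke rise of Msr1 was smaller in the knockout in these mice, but the difference did not pass the test across genes. The KO minus WT difference of the log2 changes was -0.62 (95% interval -1.11 to -0.13; limma adjusted p = 0.37), and -0.95 without KO air mice IIIb2, IIIb3 and IIIb4 (0.349). Within smoke, Msr1 was lower in KO than in WT mice by 0.51 on the log2 scale (95% interval of the KO minus WT difference -0.86 to -0.16; limma adjusted p = 0.14), and 3 of the 5 KO mice lay below all WT mice. The 2 remaining KO smoke mice, at 151 and 158.7 CPM, lay within the WT range, which runs from 148.5 to 309 CPM and is the wider of the pair. That difference passed the threshold with array weights (each library weighted by its own spread), with voom weights on the reads recovered from the log2 CPM, and without WT smoke mouse IIa5 (limma adjusted p = 0.0476); over all alternatives and left-out libraries the adjusted p ran from 0.00935 to 0.422. In air the KO minus WT difference was 0.11 (limma adjusted p = 0.852), and it ran from -0.01 without KO air mouse IIIa5 to 0.25 without IIIb2, and to 0.44 without IIIb2, IIIb3 and IIIb4 together (0.684). Msr1, the only one of the 7 genes with a seed match, was not called higher in the miR-155 KO mice in either exposure. Whether miR-155 acts through that match was not tested, since per-gene values do not separate the isoforms.

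Marco (ENSMUSG00000026390.7, chr1:120474538-120505024), the other class A member, encodes a collagenous receptor that is a hallmark of alveolar macrophages and binds inhaled particles and bacteria. Its level was 1097, 980.3, 1060, 1065 and 1111 CPM in WT air and 1568, 1461, 1895, 1594 and 2976 CPM in WT smoke. In KO air it was 1972, 1045, 901, 1282 and 1507 CPM, and in KO smoke 1934, 2183, 1718, 1934 and 1655 CPM. The WT groups were apart, with 1 smoke mouse (IIb3) far above the other 4, whereas KO air spread over more than the whole WT air range and reached into KO smoke. Marco rose by 0.79 ± 0.16 on the log2 scale (SE; 1.73-fold) in WT and by 0.54 ± 0.16 (1.45-fold) in KO mice (limma adjusted p = 0.00042 and 0.0176). The KO call was lost without KO air mice IIIb2, IIIb3 and IIIb4 together (log2 change 0.39; limma adjusted p = 0.255), without KO air mouse IIIb1 or IIIb2 or KO smoke mouse IVa4 (up to 0.07), and with a prior on the variance that was robust or had no mean trend. The KO minus WT difference was 0.28 in air and 0.03 in smoke (limma adjusted p = 0.494 and 0.962), and the difference of the smoke changes was -0.25 (95% interval -0.70 to 0.21). Single libraries moved these values without a call: the difference in air ran from 0.13 without KO air mouse IIIa5 to 0.41 without IIIb2 and was 0.44 without IIIb2, IIIb3 and IIIb4. The difference of the smoke changes ran from -0.38 without IIIb2 to -0.07 without WT smoke mouse IIb3 and was -0.40 without the 3 KO air mice.

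Cd36 (ENSMUSG00000002944.15), a class B receptor that takes up long-chain fatty acids and oxidised lipoproteins, moved the other way. Its level was 537, 574, 455, 467.9 and 561 CPM in WT air and 363.5, 417, 313, 321 and 336.6 CPM in WT smoke. In KO air it was 464.6, 373.6, 432.6, 423.6 and 419.8 CPM, and in KO smoke 318.9, 303.8, 288, 407.9 and 347 CPM. All WT smoke mice lay below all WT air mice; in the knockout 4 of the 5 smoke mice lay below all air mice and 1 (IVb2) did not. Cd36 fell by 0.57 on the log2 scale in WT mice (SE 0.09; limma adjusted p = 1.89e-05) and by 0.35 in KO mice (SE 0.09; limma adjusted p = 0.00614). The KO call was lost without KO air mice IIIb2, IIIb3 and IIIb4 (limma adjusted p = 0.0947), where the log2 change, -0.33, was close to that with all mice. In air, 4 of 5 KO mice lay below all WT mice, with a KO minus WT difference of -0.29 (95% interval -0.47 to -0.11; limma adjusted p = 0.152) that passed under no alternative run here.

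Scarb1 (ENSMUSG00000037936.15, chr5:125277087-125341094), the other class B member, encodes SR-BI, the receptor for high-density lipoprotein that passes cholesterol esters into the cell and can let cholesterol out. It stayed between 142 and 209.7 CPM in all 20 mice. The group means were 185 ± 8.99 CPM in WT air, 182 ± 7.61 in WT smoke, 170 ± 19.1 in KO air and 194 ± 10.97 in KO smoke (SD, n = 5 each). Its log2 change with smoke was -0.03 in WT mice (95% interval -0.17 to 0.12; limma adjusted p = 0.833) and 0.19 in KO mice (95% interval 0.05 to 0.33; limma adjusted p = 0.0672). The KO value passed under quantile normalization, median centring, array weights and the letter of the mouse code as a covariate, without KO air mice IIIb2, IIIb3 and IIIb4 together (log2 change 0.31), and without IIIb2 or IIIb4 alone (lowest limma adjusted p = 0.012). Set against Cd36, Scarb1 per kilobase of transcript went from a median of 50.1% of Cd36 in WT air to 75.2% in WT smoke, and from 57.0% in KO air to 76.0% in KO smoke. With all annotated exons merged as the length these medians were 15.7%, 23.6%, 17.9% and 23.8%, so the size of the ratio depends on the transcript counted, and the fold between groups does not. The mice did not overlap between air and smoke in either genotype on this ratio, whose values ran from 41.8% to 54.6% and from 56.1% to 80.5% in WT mice, and from 41.1% to 61.7% and from 69.3% to 89.2% in KO mice. Scarb1 alone overlapped between air and smoke in both genotypes, and Cd36 alone overlapped in KO mice. How many other gene pairs have a ratio without overlap was not computed.

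Cd68 (ENSMUSG00000018774.13, chr11:69664213-69666153) encodes macrosialin, the class D member, a heavily glycosylated protein that sits mostly in late endosomes and lysosomes and is used as a general macrophage marker. Its level was 952, 874, 873, 934.7 and 947.7 CPM in WT air and 1735, 1592, 1723, 1774 and 1775 CPM in WT smoke. In KO air it was 984.9, 904.9, 984.7, 1023 and 1017 CPM, and in KO smoke 1699, 1554, 1554, 1532 and 1599 CPM. The highest air mouse of either genotype, at 1023 CPM, lay far below the lowest smoke mouse, at 1532 CPM. Cd68 rose by 0.91 ± 0.06 (SE; 1.88-fold) in WT and by 0.69 ± 0.06 (1.62-fold) in KO mice on the log2 scale (limma adjusted p = 1.02e-12 and 4.44e-10), the smallest standard errors among the 7 genes. The difference of the changes was -0.22 (95% interval -0.38 to -0.05; limma adjusted p = 0.344), made up of a KO minus WT difference of 0.10 in air and -0.12 in smoke, neither called.

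Olr1 (ENSMUSG00000030162.14, chr6:129485244-129507165) encodes LOX-1, the class E receptor, a C-type lectin that binds oxidised low-density lipoprotein and is best known from endothelium. It stayed between 420 and 573 CPM in all 20 mice. In WT mice 3 of the 5 smoke mice lay below all air mice, with a log2 change of -0.18 (95% interval -0.32 to -0.03; limma adjusted p = 0.0868), which passed with array weights and without WT air mouse Ia3 or WT smoke mouse IIa5. In KO mice the change was 0.10 (95% interval -0.05 to 0.25; limma adjusted p = 0.394). Within smoke, 4 of the 5 KO mice lay above all WT mice, at 463, 522, 535, 541 and 573 CPM against 420 to 489 CPM, with a KO minus WT difference of 0.23 (95% interval 0.08 to 0.38; limma adjusted p = 0.108) that passed with median centring and array weights.

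Stab1 (ENSMUSG00000042286.13, chr14:31139013-31168641) encodes stabilin-1, the class H member, a large receptor of sinusoidal endothelium and of tissue macrophages that clears the matrix protein SPARC and modified lipoproteins. It was near the limit of detection in air. The WT air mice had 8, 0, 4, 3 and 9 reads and the KO air mice 3, 3, 13, 0 and 0, in libraries where 3 reads correspond to 0.251 to 0.436 CPM. The WT smoke mice had 67 reads (5.89 CPM, IIa1), 22 (2.45 CPM, IIa5), 169 (19.0 CPM, IIb1), 35 (3.75 CPM, IIb2) and 60 (6.42 CPM, IIb3), and the KO smoke mice 8, 7, 8, 11 and 6, or 0.679 to 1.09 CPM. All WT smoke mice thus stood above all mice of the other 3 groups, and the KO smoke mice overlapped both air groups.

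On the log2 scale Stab1 rose with smoke in WT mice by 3.84 ± 0.85 (SE; limma adjusted p = 0.0012). In KO mice the log2 change was 1.96 ± 0.85 (limma adjusted p = 0.123), and it passed without KO air mouse IIIb2, the one with 13 reads (2.69; limma adjusted p = 0.023). Without KO air mice IIIb2, IIIb3 and IIIb4 it was 1.57 (limma adjusted p = 0.329). At so few reads the size of these changes depends on the 0.5 reads added before the log. With log2(CPM + 1) the WT change was 2.19 and the KO change 0.46. Within smoke the KO minus WT difference was -2.65 (95% interval -4.39 to -0.91; limma adjusted p = 0.117) with no overlap between the groups, a pattern that 4.24% of all genes had in this comparison. This difference passed under 5 of the 10 alternatives that could be fitted, with an adjusted p between 0.00186 and 0.186. The genotype difference of the smoke changes was -1.88 (95% interval -4.34 to 0.58; limma adjusted p = 0.629).

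Stab1 is found on interstitial and monocyte-derived macrophages, and markers of those cells moved in both directions with smoke. The 3 complement C1q genes, C1qa, C1qb and C1qc, summed to 35.0, 7.58, 128.6, 22.2 and 43.9 CPM in the WT smoke mice IIa1, IIa5, IIb1, IIb2 and IIb3, and these 5 mice stood in the same order for Stab1. In WT air the sum ran from 0 to 0.479 CPM, with C1qa at 0 reads in all 5 mice, in KO air from 0 to 3.10 CPM and in KO smoke from 0.459 to 14.2 CPM. In KO smoke the 3 mice with the most C1q (IVa4, IVa2 and IVb4) were the 3 with the fewest Stab1 CPM. Of the 14 monocyte and interstitial macrophage markers listed, 10 were measured, and their summed level ran from 103.9 to 133.8 CPM in WT air, 102.4 to 286.5 in WT smoke, 108.9 to 147.6 in KO air and 87.4 to 118 in KO smoke. The defining monocyte marker Ly6c2 had 0 reads in WT air, 23 in WT smoke, 14 in KO air and 3 in KO smoke. It was not called with smoke (limma adjusted p = 0.186 in WT and 0.935 in KO mice). In WT mice 4 of the 10 measured markers were called higher and 1 lower, beside 22.4% of all genes. In KO mice 2 were called higher and 2 lower, beside 15.5%. Each C1q gene was called higher in WT mice only. Cd14 had log2 changes of -0.67 in WT and -0.66 in KO mice (limma adjusted p = 9.03e-06 and 1.73e-05). Ccr2 had -1.16 in KO mice (0.0144). Without KO air mice IIIb2, IIIb3 and IIIb4 the KO counts were 1 higher and 1 lower, and Ccr2 was not called. Of 10 endothelial and stromal markers 2 were measured, Kdr and Pdgfra, which summed to at most 2.87 CPM in any mouse. Kdr, the endothelial receptor VEGFR2, was also called higher in WT smoke: it had 0 reads in every WT air mouse, 4, 5, 15, 2 and 12 in the WT smoke mice, and 2 in all in each KO group. The log2 change of Kdr was 3.60 in WT mice (limma adjusted p = 0.00508) and -0.03 in KO mice (0.989), while Pdgfra was not called in either (0.46 and 1.36; limma adjusted p = 0.818 and 0.435). Without KO air mice IIIb2, IIIb3 and IIIb4 the KO changes of Kdr and Pdgfra were -0.38 and 0.72, neither called. The part of macrophages of these kinds and of endothelial cells in the Stab1 result was not tested. Stab1 also shares 112 exonic bases with Nt5dc2 on the opposite strand, and without strand information reads from these bases cannot be told apart; Nt5dc2 had 2.17, 5.22, 2.602 and 3.11 CPM on average in WT air, WT smoke, KO air and KO smoke.

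**Figure D2:**
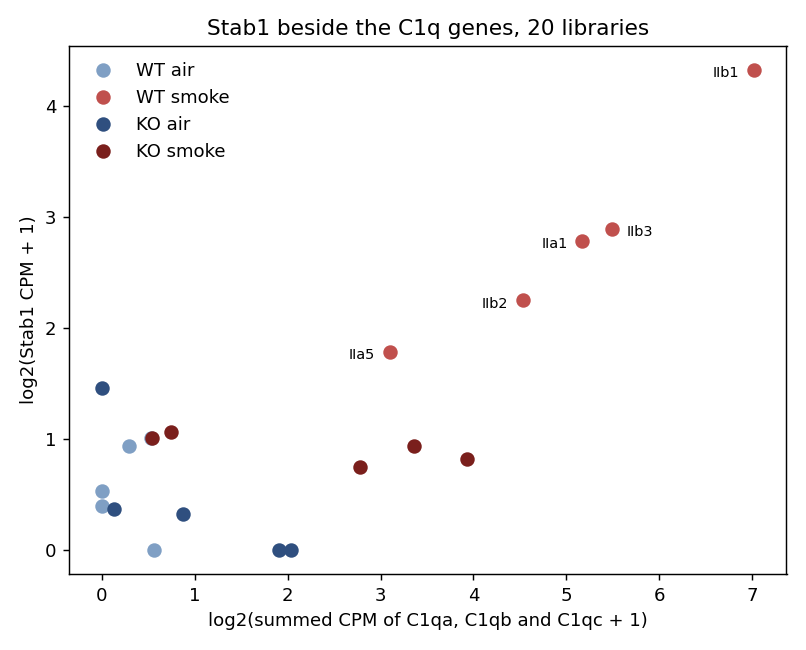
Stab1 level, as log2(CPM + 1) on the vertical axis, against the summed level of C1qa, C1qb and C1qc on the same scale, in each of the 20 libraries, coloured by group. The 5 WT smoke mice, labelled by code, run from IIa5 (2.45 CPM of Stab1) to IIb1 (19.0 CPM) in the same order on both axes, and the KO smoke mice stay between 0.679 and 1.09 CPM of Stab1 over the whole range of their C1q.

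None of the 7 genes passed the test between genotypes, in air or in smoke. The rule called 0.416% of all genes in air and 1.58% in smoke, so few calls would be found among any 7 genes. The test of the difference between the smoke changes called 0% of all genes in limma, with 1302 genes at an unadjusted p under 0.05. Over all genes it called at most 4 under the alternative settings and at most 42 with a library left out (WT smoke mouse IIa5), and it called 0 of the 7 under each of them. The unadjusted intervals of that difference lay wholly below 0 for Msr1 and Cd68 and wholly above 0 for Scarb1 and Olr1, and included 0 for Marco, Cd36 and Stab1. The 2 smoke comparisons use different mice, but each genotype difference in smoke shares its mice with them, so these values are not independent of each other.

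**Figure D3:**
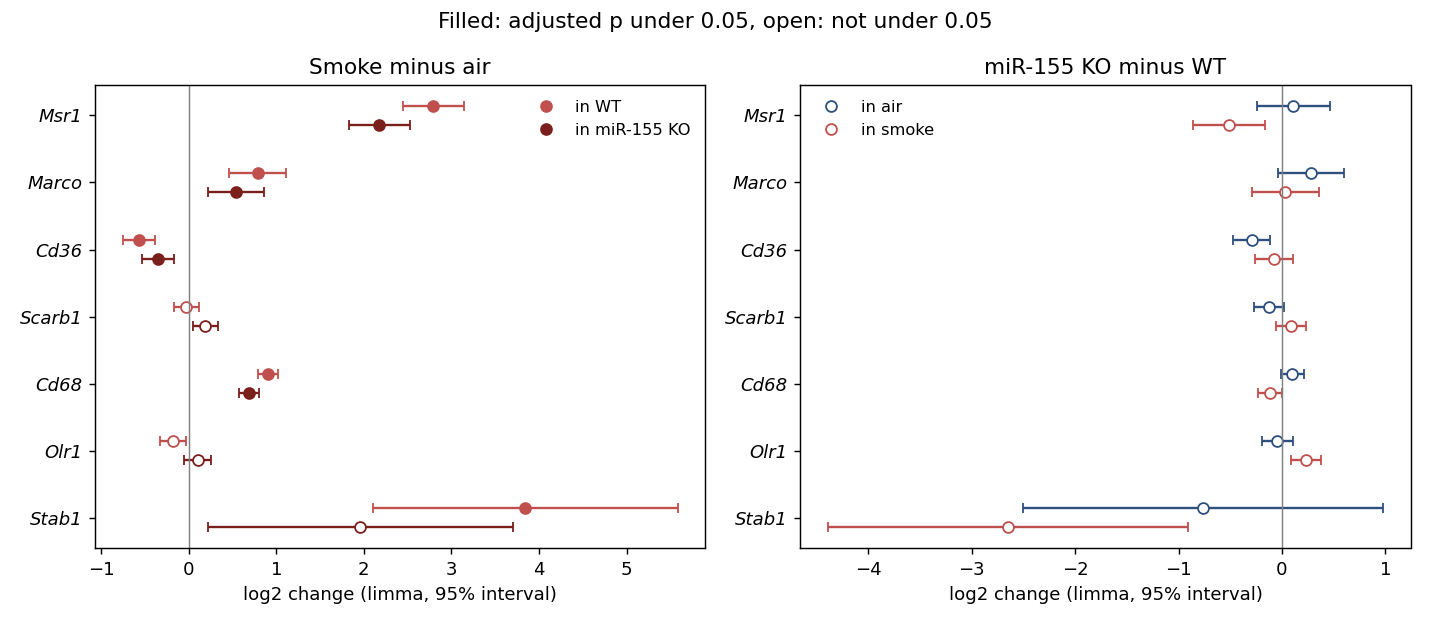
Log2 change of each scavenger receptor gene with its 95% interval (limma), for smoke minus air in each genotype (left) and for miR-155 KO minus WT in each exposure (right); filled points have an adjusted p under 0.05. Filled points are found on the left alone: Msr1, Marco, Cd36 and Cd68 in both genotypes and Stab1 in WT mice.

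Per kilobase of the longest coding transcript, the scale on which genes can be set side by side, the 7 levels covered 4 orders of magnitude. In WT air the medians were 760 CPM per kb for Cd68, 553 for Marco, 158 for Cd36, 147 for Olr1, 72.0 for Scarb1, 7.97 for Msr1 and 0.0555 for Stab1. The only neighbours in that order whose ranges overlapped were Cd36 and Olr1, with Cd36 the higher in 3 of the 5 mice. In WT smoke the medians were 1410 for Cd68, 828 for Marco, 122 for Olr1, 99.02 for Cd36, 70.9 for Scarb1, 57.1 for Msr1 and 0.736 for Stab1. There the range of Cd68 overlapped that of Marco, Olr1 overlapped Cd36 and Scarb1 overlapped Msr1. Within the same mouse, the first of each pair was the higher in 4, 5 and 4 of the 5 mice. In KO air Cd68 (801) overlapped Marco (666) and Olr1 (134) overlapped Cd36 (125), followed by Scarb1 (67.9), Msr1 (8.51) and Stab1 (0.0314). Within the same KO air mouse, Cd68 was above Marco in 4 of 5 and Olr1 above Cd36 in 5 of 5. In KO smoke no neighbours overlapped, with Cd68 at 1263, Marco at 1004, Olr1 at 150, Cd36 at 93.8, Scarb1 at 75.6, Msr1 at 39.9 and Stab1 at 0.115 CPM per kb. By their medians Olr1 and Cd36 stood in another order in WT air than in the other 3 groups, while Cd68 and Marco led and Stab1 came last in all 4.

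**Figure D4:**
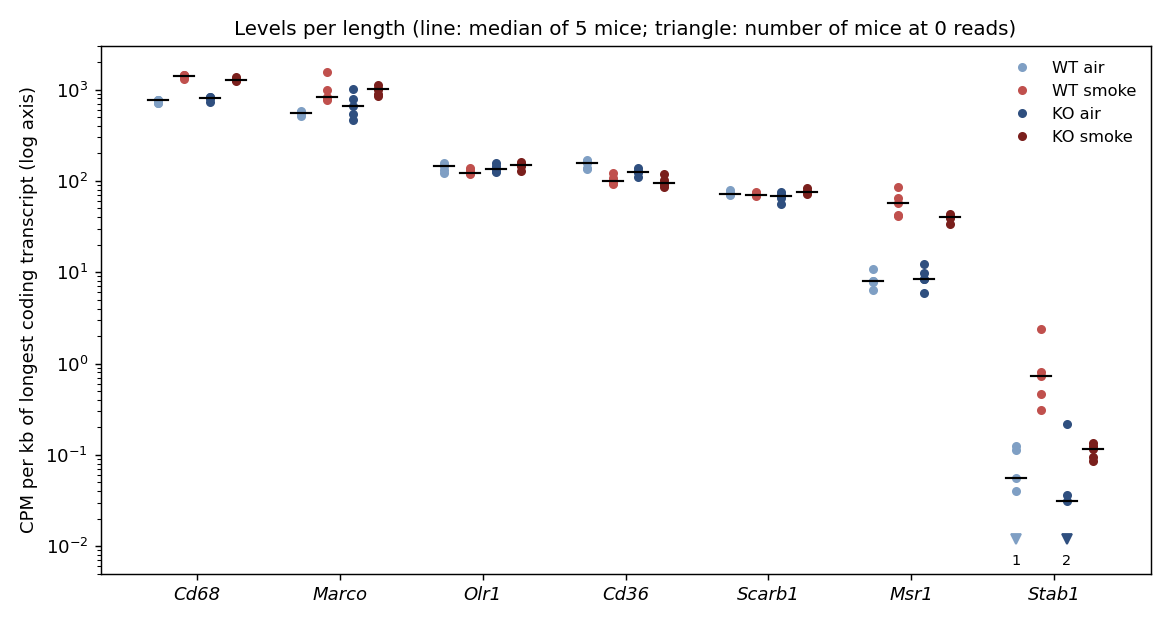
Level of each scavenger receptor gene in CPM per kilobase of its longest coding transcript, on a log axis, by group; points are mice, lines are medians of 5 mice, and triangles give the number of mice at 0 reads of Stab1. Msr1 moves from 7.97 to 57.1 CPM per kb between WT air and WT smoke, into the range of Scarb1.

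The class A pair became less unequal under smoke. Msr1 as a share of Marco per kb had a median of 1.45% in WT air (1.16% to 1.86%), 6.90% in WT smoke (2.76% to 8.63%), 1.25% in KO air (1.07% to 1.81%) and 3.89% in KO smoke (3.76% to 4.83%). The WT smoke mouse with the lowest share, IIb3, was the one with 2976 CPM of Marco. With all annotated exons merged as the length, the medians were 0.830%, 3.95%, 0.717% and 2.23%, and Msr1 stood above Scarb1 in WT smoke (32.7 against 21.0 CPM per kb), so the order of these 2 genes depends on the transcript counted.

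Within groups the 7 genes varied largely on their own. Over the 20 libraries, Pearson's r between deviations of log2 CPM from the group means ran from -0.44 (Msr1 with Scarb1) to 0.35 (Marco with Cd68) over the 21 pairs. Among 8674 other genes, those whose deviations were most like a member's were Irf9 (r = 0.86) and Minos1 (0.85) for Msr1, Lpin1 (0.84) and Dhcr7 (0.80) for Marco, Akap8 (0.85) and Cdk14 (0.82) for Cd36, and Fez2 (0.80) and Flot2 (0.79) for Scarb1. For Cd68 they were Cpsf3 and Rpl29 (0.78 each), and for Olr1 Stxbp3 (0.77) and Hacd4 (0.76). For Stab1, among 8675 genes, they were Eftud2 (0.81) and Pex19 (0.80). These are the extremes of very many coefficients over the same 20 libraries, which also share depth, and are given as a description.

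For the lists that follow, the share of all genes called is again 22.4% in WT and 15.5% in KO mice, and nothing particular to a list is read from its count. Of the other scavenger receptor classes, 10 of 19 listed genes were measured. In WT mice 1 rose and 2 fell, and in KO mice 1 rose and none fell; their median log2 change was -0.17 in WT and -0.09 in KO mice. Clec7a, which encodes the beta-glucan receptor dectin-1, rose by 0.34 ± 0.07 in WT and 0.53 ± 0.07 in KO mice (SE; limma adjusted p = 0.000417 and 1.53e-06). Mrc1, the mannose receptor CD206, fell by 0.30 ± 0.07 in WT mice (limma adjusted p = 0.00127), and Scarf2 fell by 1.43 ± 0.48 (limma adjusted p = 0.0319) from a mean of 3.56 CPM. In KO mice their log2 changes were -0.04 and -1.07 (limma adjusted p = 0.736 and 0.14). Between genotypes, where none of the 7 passed, Scarb2, the class B relative LIMP-2 that carries beta-glucocerebrosidase to lysosomes, was lower in KO mice by 0.32 in air and 0.27 in smoke (limma adjusted p = 0.0323 and 0.0458). Without KO air mice IIIb2, IIIb3 and IIIb4 the Scarb2 call in air was lost (-0.33, limma adjusted p = 0.174) and that in smoke was kept (0.021). Mrc1 was higher in KO than in WT smoke mice by 0.26 (limma adjusted p = 0.0336). Cd163, Stab2 and Cd5l are among the 9 listed genes that were not among those of the table.

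**Figure D5:**
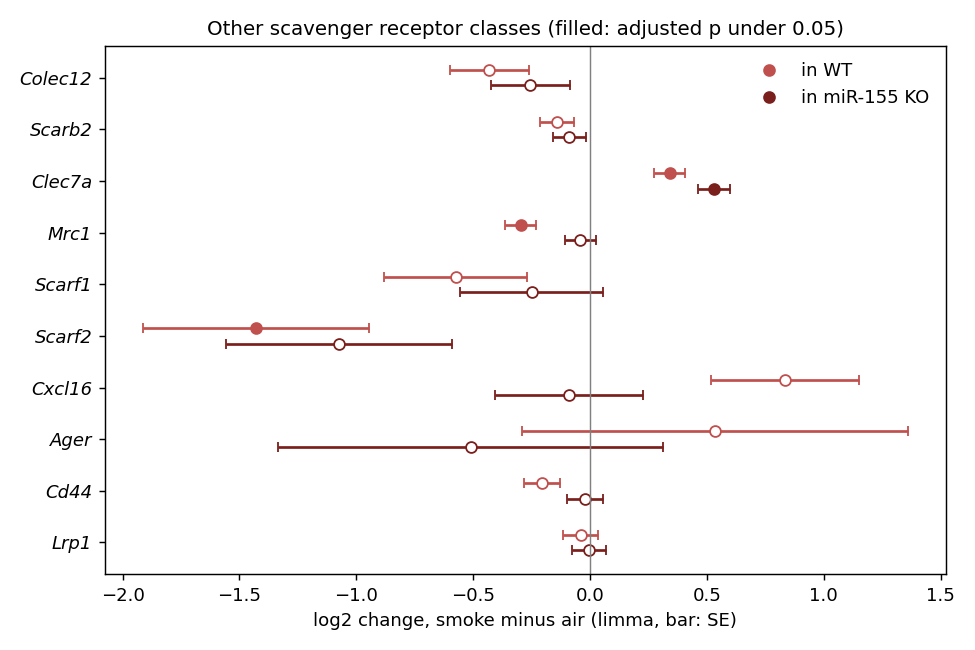
Log2 change with smoke (limma, error bar SE) of the 10 measured genes of other scavenger receptor classes, in WT and in miR-155 KO mice; filled points have an adjusted p under 0.05. Clec7a is higher in both genotypes, and Mrc1 and Scarf2 are called lower in WT mice.

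Genes that handle what these receptors take in were called in both directions. Of 11 measured genes for lipoprotein receptors, their chaperones and their control, 3 rose and 4 fell in WT and 2 rose and 2 fell in KO mice. Mylip, a ubiquitin ligase that acts on lipoprotein receptors, fell by 1.17 ± 0.13 and 1.05 ± 0.13 on the log2 scale in WT and KO mice (limma adjusted p = 9.25e-08 and 8.8e-07). Lrp12, a receptor of this family, rose by 0.19 ± 0.06 in WT and 0.38 ± 0.06 in KO mice (limma adjusted p = 0.0335 and 8.24e-05). Lrp6, also of the family, fell by 0.49 ± 0.08 and 0.23 ± 0.08 (limma adjusted p = 4.34e-05 and 0.0497), and its KO call was lost without KO air mice IIIb2, IIIb3 and IIIb4 (0.0991). Lrpap1, a chaperone of the family, rose by 0.74 ± 0.10 in WT mice (limma adjusted p = 2.95e-06), with 0.26 ± 0.10 in KO mice (0.0776). It was lower in KO than in WT mice in smoke by 0.50 (0.00626), with all libraries the only one called between genotypes in smoke, with 0 called in air. Without those 3 KO air mice Sort1 was also called in smoke, with a KO minus WT difference of 0.25 (limma adjusted p = 0.035). The median log2 change of this family was -0.02 in WT and -0.13 in KO mice.

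Of the 13 genes of cholesterol ester and efflux handling, all measured, 5 rose and 3 fell in WT mice and 5 rose and 4 fell in KO mice, with medians of -0.01 and 0.09. Abca1, which exports cholesterol to apolipoproteins, fell by 0.998 ± 0.11 in WT and by 1.16 ± 0.11 in KO mice on the log2 scale (limma adjusted p = 9.25e-08 and 9.79e-09). Abcg1, the exporter to high-density lipoprotein, fell by 0.44 ± 0.06 and 0.38 ± 0.06 (limma adjusted p = 1.16e-06 and 2.13e-05). Fabp5, a carrier of fatty acids in the cytosol, rose by 0.91 ± 0.11 and 0.98 ± 0.11 (2.16e-07 and 1.14e-07), and Npc2, which lifts cholesterol out of lysosomes, rose by 0.34 ± 0.06 and 0.38 ± 0.06 (7.19e-05 and 1.99e-05). Without KO air mice IIIb2, IIIb3 and IIIb4, 4 rose and 3 fell in KO mice. Apoe had a KO minus WT difference of -1.19 ± 0.24 in smoke (limma adjusted p = 0.00754), with all libraries again the only one of its list called between genotypes. Without those 3 KO air mice Abcg1 was also called in smoke, with a KO minus WT difference of 0.21 (limma adjusted p = 0.0441).

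Among the receptors and bridging proteins for apoptotic cells, 13 of 17 measured, 3 rose and 2 fell in WT and 2 rose and 2 fell in KO mice, with medians of 0.15 and 0.11. Mfge8, the bridge between phosphatidylserine and integrins, rose most, by 3.92 ± 0.25 in WT and 3.59 ± 0.25 in KO mice on the log2 scale (limma adjusted p = 3.04e-12 and 2.83e-11). Axl, a receptor of the TAM kinase family, fell by 0.49 ± 0.07 and 0.38 ± 0.07 (5e-06 and 0.000197). Pros1, a ligand of other receptors of that family, fell by 0.65 ± 0.11 and 0.42 ± 0.11 (3.16e-05 and 0.00598). Itgb5, an integrin chain that partners MFG-E8, rose by 0.26 ± 0.07 and 0.31 ± 0.07 (limma adjusted p = 0.0111 and 0.00372). Without KO air mice IIIb2, IIIb3 and IIIb4 the KO calls of Pros1 (-0.29, 0.205) and Itgb5 (0.31, 0.0533) were lost, which left 1 higher and 1 lower. Between genotypes 0 of these 13 were called in air and 0 in smoke.

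Of 15 measured genes for transcription factors known to act on scavenger receptor genes, 2 rose and 2 fell in WT and 4 rose and 3 fell in KO mice, with medians of -0.09 and -0.07. Cebpa, a myeloid factor, fell by 0.31 ± 0.08 in WT and 0.37 ± 0.08 in KO mice on the log2 scale (limma adjusted p = 0.00731 and 0.00227), Nr1h2, which encodes LXR-beta, fell by 0.33 ± 0.10 in WT mice (0.0192; KO -0.23, 0.132), and Srebf2, the driver of sterol synthesis genes, rose by 0.45 ± 0.09 in KO mice (0.000668; WT 0.18, 0.154). Without KO air mice IIIb2, IIIb3 and IIIb4, 2 rose and 0 fell in KO mice, Cebpa no longer being called (-0.30; limma adjusted p = 0.103). With all libraries, Pparg and Spi1, which encode PPAR-gamma and PU.1, were not called in any comparison, and 0 of the 15 were called between genotypes. Without those 3 KO air mice, Pparg was called higher in KO than in WT smoke mice, by 0.40 (limma adjusted p = 0.0219).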

How the data were processed

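Poly-A RNA of sorted alveolar macrophages was sequenced, 1 library per mouse. RNA came from miRNeasy Mini columns, and TruSeq mRNA libraries started from 25 ng, per the labels' protocols. Per the submitters' processing notes the tools were STAR 2.6.0c and limma, with genome build GRCm38.p6; for the counter, annotation, strand setting and any low-count filter, the step was not given in the sources used here. Per gene the authors deposited log2 CPM in the voom form, where counts are raised by 0.5 and library totals by 1 before the ratio. Whole reads were recovered within 0.001 for 100.0% of values and gave the CPM printed here.

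limma 3.58.1 (R 4.3.3; group means, all 20 libraries, mean trend, two-sided, Benjamini-Hochberg over 13225 genes) was the test, and was checked on simulated data; intervals are 95%. Calls required an adjusted p below 0.05. Levels per kb and untranslated regions use GENCODE M21. The 7 genes, the lists and the tests were chosen with earlier results of these data known. From each pathway list up to 3 called genes with the smallest p were named per smoke comparison and up to 2 per genotype comparison, except 2 genes not reported here; Pparg and Spi1, and Cd163, Stab2 and Cd5l, were named after their values or absence were seen. The letter in the mouse codes is unexplained and was tried as a covariate. Dixon's rule was applied to each gene and group. Other alternatives were 2 scalings, a pseudocount, a filter on low values, 2 variance priors, array and voom weights, fewer groups in the fit, and libraries left out.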

Additional observations from a re-analysis of the deposited data

Results flagged for a closer look

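Among the 28 combinations of the 7 genes with the 4 groups, 1 held a mouse far from the others: WT smoke mouse IIa5 had a log2 CPM of 10.64 for Cd68, below the other 4 mice, with a gap of 0.725 of the group's range. About 1 in 20 such groups is marked by chance. The value still lay above every air mouse, and the Cd68 calls were kept without it.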

How the results depend on the processing

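Of 1073 values of the 7 genes under alternatives, 1039 kept their direction and their side of the threshold, 7 lost the call, 21 gained it and 6 changed sign. The sign changes were small: Scarb1 with smoke in WT mice under quantile normalization (0.0540), Marco for KO minus WT in smoke without WT smoke replicate 1, 2 or 4 or KO smoke replicate 2 (-0.0216, -0.0472, -0.0157 and -0.0204, in a range up to 0.2094 over left-out libraries), and Msr1 for KO minus WT in air without KO air replicate 1 (-0.0118, in a range up to 0.2548). The count of the 7 genes called between genotypes in smoke, 0 in the reported fit, was 1 with log2(CPM + 1), median centring, only the groups compared, and without KO air mice IIIb2, IIIb3 and IIIb4; it was 3 with array weights (Msr1, Stab1 and Olr1) and 2 with voom weights (Msr1 and Stab1). The cause was not tested. Leaving out single libraries gave 5 to 6 called genes for smoke in WT mice, 3 to 5 for smoke in KO mice, 0 to 1 for KO against WT in smoke, and 0 for the other comparisons. Over all genes, the 2051 calls for smoke in KO mice were 1220 without KO air mice IIIb2, IIIb3 and IIIb4. The 209 calls for KO against WT in smoke were 105 with no mean trend, 334 with only the groups compared, 356 without those 3 mice and 954 with array weights; they were 88 without WT smoke mouse IIb1, 132 without IIb2, 374 without IIa5, and 138 without KO smoke mouse IVa5 or IVb2. The 55 calls in air were 24 with only the groups compared or without those 3 mice, 29 without WT air mouse Ia4, 36 without Ib2 and 182 without KO air mouse IIIa5. Median centring moved the split in smoke from 118 higher and 91 lower to 197 and 69. Stab1 could not be fitted with the filter on low values, which left it out. No paired analysis was possible because each mouse code occurs once. Depth limits Stab1 in air, at 0 to 13 reads per library: the KO minus WT difference was -0.77 with a 95% interval from -2.51 to 0.98. The values without the 3 KO air mice in the pathway lists, and the merged exon lengths, were chosen after seeing the data.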
